A study of Mus musculus with 4 samples.

Results

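The genes described here belong to the machinery that copies DNA before a cell divides. They are Mcm2, Mcm3, Mcm4, Mcm5, Mcm6, Mcm7, Cdc6, Gins1, Pcna and Rrm2, which were found by their names in the array annotation. They are 10 of 36161 gene names and occupy 12 of 59305 non-control spots, since Mcm3 and Cdc6 have 2 probes each. Liver RNA was measured on 4 Agilent arrays read in 1 colour, with 1 array for microsomic females (MF), 1 for control females (CF), 1 for microsomic males (MM) and 1 for control males (CM). Microsomic (M) mice are those of low body weight for their gender, and controls (C) are mice of normal weight of the same colony. All samples are labelled as whole liver of the inbred strain C57BL/6J at embryonic day 20, whereas the paper describes newborn C57BL/6 N mice and replicate experiments. No mouse was treated or carried an engineered allele, and whether an array holds RNA of 1 animal or of several is not stated.

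The 6 Mcm proteins form a ring, the core of the helicase that unwinds DNA. Cdc6, together with the origin recognition complex and Cdt1, loads this ring onto origins in G1 phase. The GINS complex, of which Gins1 is a subunit, joins the ring with Cdc45 to make it active. Pcna is the sliding clamp that holds polymerases on DNA, and Rrm2 is the small subunit of ribonucleotide reductase, which makes deoxynucleotides. Many of these genes are known targets of E2F transcription factors and are transcribed mainly in proliferating cells. The liver around birth holds dividing hepatocytes and blood-forming cells, and in bulk RNA fewer cells of a type and less RNA per cell cannot be told apart.

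The stretch upstream of the gene start is shown for 4 members in which the letters of an E2F site lie there. RefSeq windows of GRCm38.p6, from 250 bases before to 50 bases after the start site, matched 8 of the 10 genes with 9 windows. Capitals mark the letters TTTCCCGC, TTTCGCGC, TTTGCCGC or TTTGGCGC on either strand, and also CCAAT on either strand. Overlapping matches run together.
Mcm5, bases 170 to 1 before the start site, chr8:75109339-75109508, plus strand: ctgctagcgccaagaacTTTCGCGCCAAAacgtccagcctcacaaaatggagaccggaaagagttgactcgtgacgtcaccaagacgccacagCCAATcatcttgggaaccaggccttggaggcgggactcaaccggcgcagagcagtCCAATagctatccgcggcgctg
Mcm6, bases 120 to 1 before the start site, chr1:128359706-128359825, minus strand: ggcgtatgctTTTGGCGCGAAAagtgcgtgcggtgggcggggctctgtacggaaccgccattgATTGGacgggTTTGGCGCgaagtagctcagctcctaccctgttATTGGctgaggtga
Mcm7, bases 180 to 121 before the start site, chr5:138172004-138172063, minus strand: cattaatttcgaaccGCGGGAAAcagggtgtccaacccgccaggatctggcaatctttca
Cdc6, bases 160 to 101 before the start site, chr11:98907991-98908050, plus strand: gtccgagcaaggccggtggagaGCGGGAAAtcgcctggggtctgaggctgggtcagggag

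The E2F letters also occur in the Mcm3 window, but only after the start site. They are absent from the windows of Mcm2, Pcna and Rrm2 and from that of a second start site of Mcm7, which says only that these letters are not in those windows. Of all 32851 promoter windows, 2.26% hold at least 1 of the E2F letter strings and 37.4% hold CCAAT. A match of letters is not a binding site.

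The probes that the results turn on are shown by 30 of their 60 bases, in the sense of the transcript, with positions on mm9. The Mcm3 probes overlap by 43 bases, of which 42 are identical, and the capital letter marks the base that differs. The Cdc6 probes lie apart in the transcript and the others are the only probe of their gene. Whether each lies in coding sequence or in a UTR was not analysed here.
Mcm3, probe A_55_P1953087, chr1:20793149-20793178, minus strand: aagctttctttgcAattagactagtatgta
Mcm3, probe A_51_P324934, chr1:20793149-20793178, minus strand: aagctttctttgcGattagactagtatgta
Cdc6, probe A_66_P131979, chr11:98782986-98783015, plus strand: tgtaaagaactttgaagtttagaaggatga
Cdc6, probe A_52_P219473, chr11:98785169-98785198, plus strand: ttaagaaccagattaagtttccatagtgtc
Mcm5, probe A_51_P190111, chr8:77651350-77651379, plus strand: tggaaatgtactttggtctgttggctcata
Gins1, probe A_51_P337089, chr2:150756868-150756897, plus strand: acaaaaccaagaactcttggctaggagcat
Rrm2, probe A_55_P2173982, chr12:25398824-25398853, plus strand: ctagcttcctcatgaactgacataaccctg

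Levels are on a log2 scale, relative to the signal at the 75th percentile of the same array, so that 0 is the signal at that percentile. No group has a second array, so spread between replicates is unknown and a pair of arrays carries no p-value. As a guide to technical error, 148 probes printed in at least 8 spots, in the brightness range of the members, had a log2 difference between arrays that varied from spot to spot with an SD of 0.32 in MF vs CF, 0.36 in MM vs CM, 0.30 in MM vs MF and 0.41 in CM vs CF. This SD leaves out all variation between animals. The arrays lie on the same slide, with the M arrays in slide column 3 and the C arrays in slide column 1, and with the females in slide row 1 and the males in slide row 2, so sex and slide row, as well as condition and slide column, cannot be told apart. The 75th percentile was a signal of 893 on MF, 676 on CF, 925 on MM and 628 on CM. Between 56.1% and 65.3% of the spots were well above background. The labels of gender held: Ddx3y, a gene of the Y chromosome, had a log2 level of 2.61 on MM and 1.47 on CM and was not well above background on MF and CF.

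All 12 probes of the members were well above background on the 4 arrays and none was saturated. By their mean level, the representative probes lay between the 78.0 and 97.7 percentiles of all probes. The spot of Pcna had a flag for uneven brightness on MF and CF and is given by its values only. The counts below refer to the other 9 genes, each represented by its brightest probe.

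**Figure D1:**
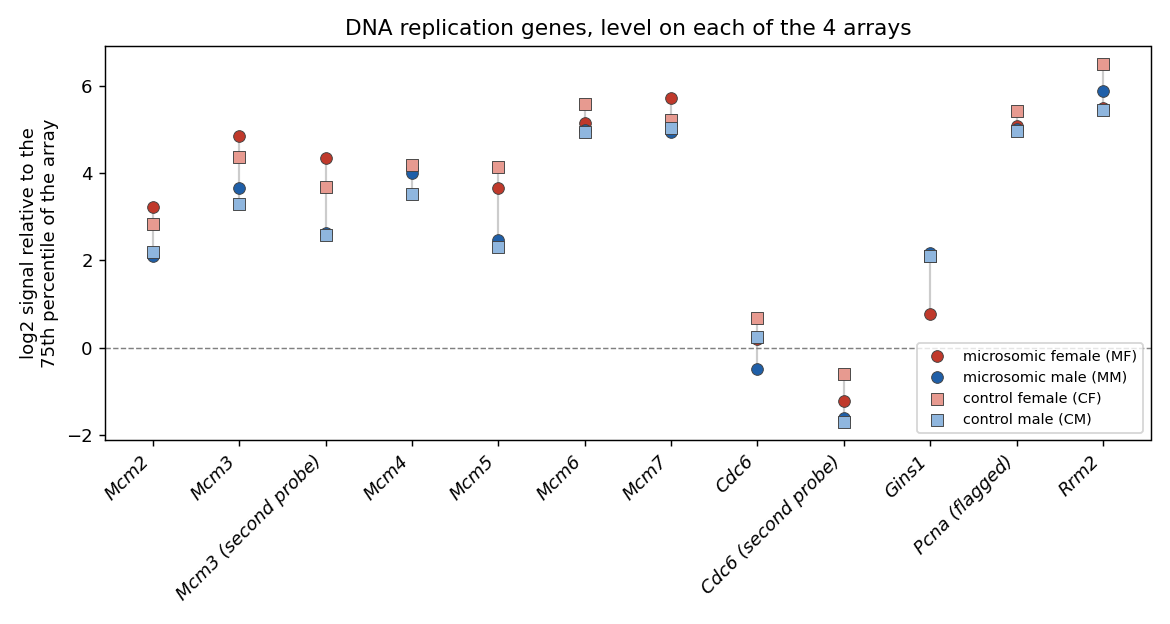
Level of each probe of the 10 DNA replication genes on the 4 arrays, as log2 signal relative to the 75th percentile (dashed line); circles are microsomic and squares control livers, red tones females and blue tones males, and grey lines join the lowest and the highest array. Mcm3 and Mcm5 show the females above both males, and Gins1 shows MF (0.77) below the other arrays.

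Among the helicase genes, Mcm2 had a log2 level of 3.22 on MF, 2.84 on CF, 2.11 on MM and 2.20 on CM. Mcm3 was at 4.85 on MF, 4.36 on CF, 3.67 on MM and 3.30 on CM by its brightest probe. Its second probe gave 4.35 on MF, 3.69 on CF, 2.63 on MM and 2.59 on CM. In both genes, and by both probes of Mcm3, the levels on the female arrays were above those on the male arrays.

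Mcm5 was at 3.66 on MF, 4.13 on CF, 2.46 on MM and 2.31 on CM, the same order of the sexes. Mcm4 was at 4.09 on MF, 4.19 on CF, 4.0 on MM and 3.52 on CM, with CM below the other arrays, which lay close together. Mcm6 was at 5.15 on MF, 5.58 on CF, 4.99 on MM and 4.95 on CM. In Mcm6 the CF array stood above the others. Mcm7 was at 5.73 on MF, 5.22 on CF, 4.95 on MM and 5.04 on CM, highest on MF.

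Of the genes that act before and beside the helicase, the loader Cdc6 was at 0.20 on MF, 0.67 on CF, -0.48 on MM and 0.24 on CM by its brightest probe. Its second probe was dimmer, at -1.22 on MF, -0.61 on CF, -1.61 on MM and -1.70 on CM. Both probes were highest on CF, but the lowest array was MM by the first and CM by the second. Gins1 was at 0.77 on MF, 2.10 on CF, 2.17 on MM and 2.10 on CM, low on MF alone. Rrm2 was at 5.49 on MF, 6.51 on CF, 5.88 on MM and 5.45 on CM, high on CF. The flagged spot of Pcna gave 5.08 on MF, 5.42 on CF, 5.01 on MM and 4.96 on CM. Over the 9 genes, CF was the highest array for 5 and CM the lowest for 5. Of all 19298 genes well above background on the 4 arrays, 23.4% were lowest on CM and 22.0% highest on CF, and in the brightness range of the members these shares were 27.6% and 24.1%.

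The first question of the design is what differed in microsomic females. Gins1 and Rrm2 were lower in MF than in CF by more than 2-fold, and by its brightest probe no member was higher by more than 1.5-fold. Gins1 fell by 1.32 on the log2 scale, or 2.50-fold lower, and Rrm2 fell by 1.01, or 2.02-fold lower. Thus 2 of 9 members were over 1.5-fold lower and 0 of 9 over 1.5-fold higher. Among all 25536 genes compared, 21.0% were lower and 19.9% higher by that measure, and among the 8925 genes in the brightness range of the members 17.8% were lower and 18.0% higher. The 2 members are therefore near the background of the pair of arrays. Both differences were larger than the SD between spots, and both kept their direction and remained over 1.5-fold in all 10 processing settings compared, with log2 differences of Gins1 from -1.53 to -0.92 and of Rrm2 from -1.61 to -0.61.

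The other members differed less between MF and CF. Mcm7 (0.51), Mcm3 (0.49) and Mcm2 (0.38) had a positive log2 difference. The second probe of Mcm3 gave 0.66, which is over 1.5-fold. Mcm5 (-0.48), Cdc6 (-0.47), Mcm6 (-0.43) and Mcm4 (-0.10) had a negative one, and the second probe of Cdc6 gave -0.61. For Mcm3, Mcm4, Mcm5 and Mcm7 the sign changed in at least 1 of the settings. The 6 Mcm genes thus lay on both sides of 0, with a median of 0.14. The median over the 9 members was -0.43, beside -0.08 over all genes well above background on the 4 arrays. In the brightness range of the members the median was also -0.08. The flagged spot of Pcna gave -0.35.

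In males, Cdc6 was the single member past 1.5-fold. It was lower in MM than in CM by 0.72 on the log2 scale (log2 difference -0.72, 1.65-fold) by its brightest probe, whereas its second probe gave 0.09. The probes therefore disagree. The mean over both was -0.32, which is under 1.5-fold. Thus 1 of 9 members was over 1.5-fold lower and 0 of 9 higher, beside 23.1% and 17.7% of all 26313 genes compared, and 11.0% and 15.9% of the genes in the brightness range of the members.

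The remaining members moved little between MM and CM. Mcm4 (0.47), Rrm2 (0.42) and Mcm3 (0.37) had the largest positive log2 differences, followed by Mcm5 (0.16), Gins1 (0.07) and Mcm6 (0.04). Mcm2 and Mcm7 gave -0.09 each, and the flagged spot of Pcna 0.05. The median over the 9 members was 0.07, beside -0.03 over all genes well above background on the 4 arrays. In the brightness range of the members the median was 0.08, so the members were near it. How high these values are depends on how the arrays are scaled: without scaling, the median of the members was 0.63 and that of all genes 0.53.

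**Figure D2:**
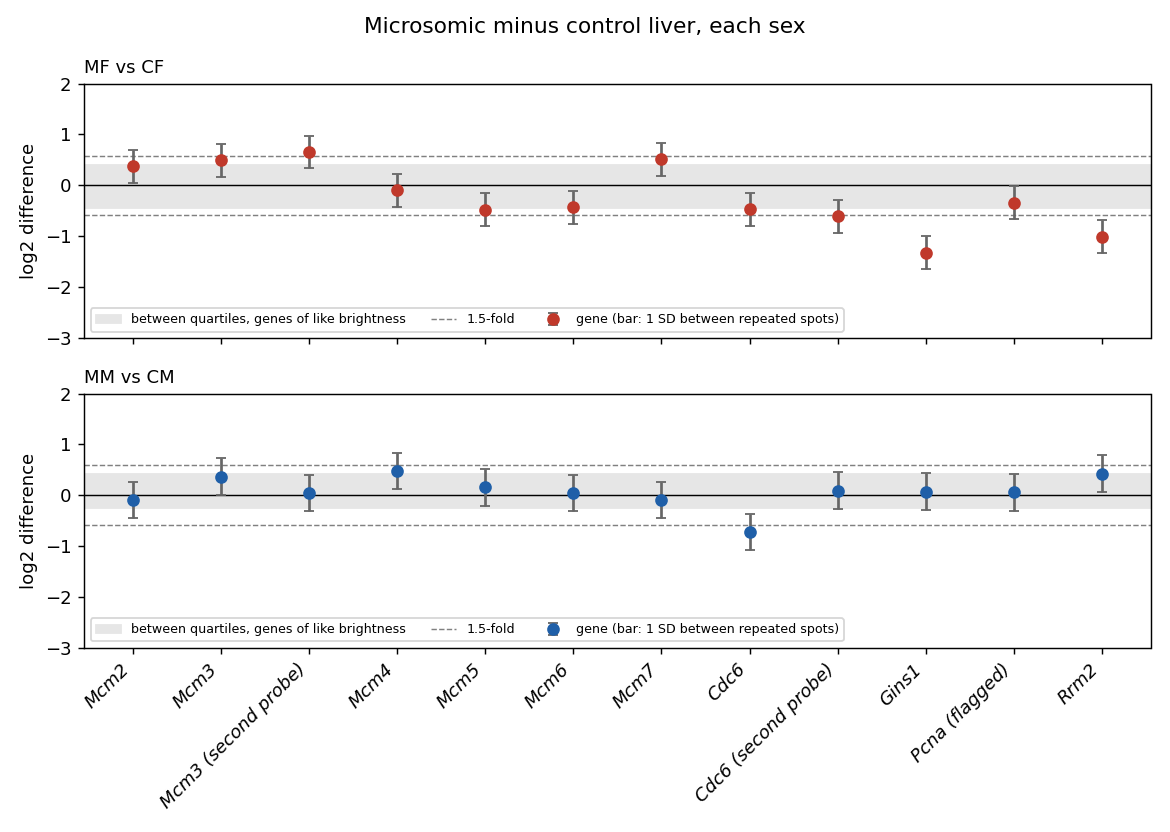
Log2 difference between microsomic and control liver for each probe in females (top) and males (bottom). Bars are 1 SD of the difference between repeated spots of other probes, not an error over animals. The grey band runs between the quartiles of genes of like brightness and dashed lines mark 1.5-fold. In females Gins1 (-1.32) and Rrm2 (-1.01) lie farthest below the band, and Mcm5 and both probes of Cdc6 also lie below its edge. Mcm7 (0.51) and both probes of Mcm3 (0.49 and 0.66) lie above the band in females. In males Gins1 and Rrm2 do not lie below the band, while Cdc6 does by its brightest probe (-0.72). Mcm4 (0.47) and Rrm2 (0.42) lie just above the band in males.

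The direction of the M to C difference was the same in both sexes for 2 of the 9 members, Mcm3 (higher in M) and Cdc6 (lower in M), beside 49.4% of all genes well above background on the 4 arrays and 48.6% of those in the brightness range of the members. It was lower in females and higher in males for 5, and higher in females and lower in males for 2. In males, 5 of the 9 differences were smaller than the SD between spots, and the sign of Mcm2, Mcm5, Mcm6 and Mcm7 there changed in at least 1 of the settings. The log2 difference in females minus that in males was -1.40 for Gins1 and -1.44 for Rrm2, and with 1 array per group this gap was not tested.

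A change common to both sexes was tested with limma, over 19298 genes and with 1 residual degree of freedom. No gene reached an adjusted p under 0.05 for M vs C (the smallest was 0.966), while 851 genes, or 4.41%, had an unadjusted p under 0.05. None of the 9 members was among these 851. Their adjusted p was 0.995 in each case. The largest fitted M to C difference among them was that of Gins1, with a log2 change of -0.63 and an SE of 0.48. It averages -1.32 in females and 0.07 in males and is not a change common to both. Cdc6, lower in M in both sexes by its brightest probe, gave -0.60 with an SE of 0.41.

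The levels invited a comparison of the sexes, which was chosen after the values had been seen. All 6 Mcm genes and Cdc6 were lower on CM than on CF and also lower on MM than on MF, except that Mcm4 and Mcm6 turned in MM vs MF under some of the settings given below. That is 7 of 9 members, beside 26.2% of all genes well above background on the 4 arrays and 30.7% of those in the brightness range of the members. The 2 pairs share no array, but in each the female lies in slide row 1 and the male in slide row 2. Sex and slide row therefore cannot be told apart in either pair. Because the genes were compared after their order on the arrays was known, these counts are a description. The median log2 difference over the 9 members was -0.64 between the control livers, beside 0.02 over all genes well above background on the 4 arrays, and -0.68 between the microsomic livers, beside 0.08. In the brightness range of the members the medians were -0.08 and 0.06.

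Mcm5 differed most between the control livers, 3.55-fold lower on CM than on CF (log2 difference -1.83), and it was 2.29-fold lower on MM than on MF (-1.20). Mcm3 was 2.08-fold lower on CM than on CF (-1.06) and 2.27-fold lower on MM than on MF (-1.18). Its second probe gave -1.11 and -1.72. Mcm2 was 1.56-fold lower in control males (-0.64) and 2.15-fold lower in microsomic males (-1.10). For Mcm2, Mcm3 and Mcm5 the male level was the lower one in both pairs in all 10 settings compared.

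For the other helicase genes the size depended on the pair. Mcm4 gave -0.66 in CM vs CF but -0.09 in MM vs MF, and Mcm6 gave -0.63 and -0.16. Mcm7 was the reverse, with -0.78 in MM vs MF and -0.18 in CM vs CF. The sign of Mcm4 in MM vs MF was positive under both quantile normalizations and after removal of the position trend, and that of Mcm6 was positive under both quantile normalizations. Under these the number of Mcm genes lower in both pairs was 4 or 5 in place of 6. Over the 6 Mcm genes the median log2 difference was -0.65 between the control livers and -0.94 between the microsomic livers.

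Cdc6 gave -0.68 in MM vs MF and -0.43 in CM vs CF by its brightest probe, and -0.39 and -1.09 by its second. Rrm2 and Gins1 had other orders of the arrays. Rrm2 was 2.07-fold lower on CM than on CF (-1.05) but gave 0.38 in MM vs MF. Gins1 was level in the control livers (0.00) and 2.64-fold higher on MM than on MF (1.40). In counts, 6 of 9 members were over 1.5-fold lower and 0 over 1.5-fold higher in CM vs CF, beside 19.7% and 26.6% of all genes compared. In MM vs MF 5 of 9 were over 1.5-fold lower and 1 higher, beside 20.5% and 28.9% of all genes compared. For these pairs the shares in the brightness range of the members were not counted.

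**Figure D3:**
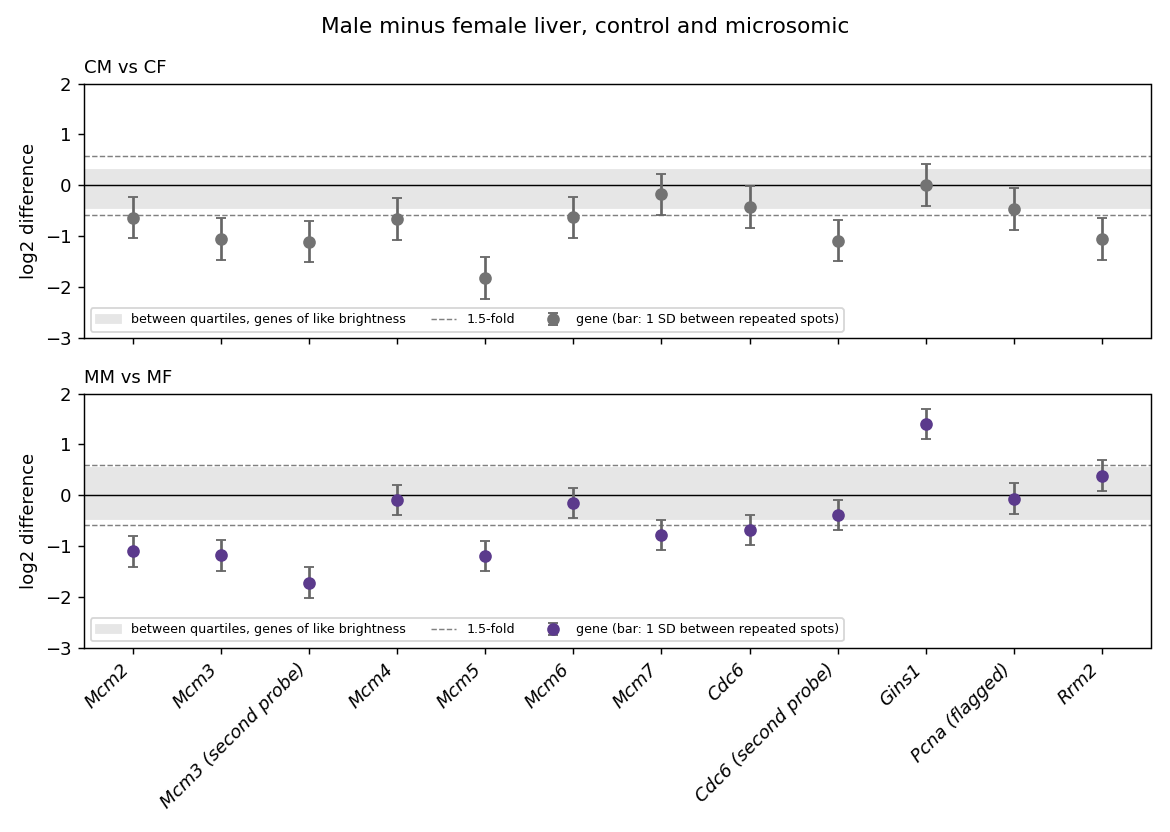
Log2 difference between male and female liver for each probe in control (top) and microsomic (bottom) mice, drawn as in the plot of microsomic against control liver. All 6 Mcm genes lie below 0 in both panels, Mcm5 at -1.83 and -1.20, while Gins1 lies at 0.00 and 1.40; Mcm4 and Mcm6 in the lower panel turn positive under quantile normalization, and Mcm4 also after removal of the position trend.

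In the limma fit, the term for sex passed an adjusted p under 0.05 for 0 genes (the smallest was 0.0847), and 1804 genes, or 9.35%, had an unadjusted p under 0.05. Among the members these were Mcm5, with a male minus female log2 change of -1.51, an SE of 0.43 and an adjusted p of 0.394, and Mcm3, with -1.12, an SE of 0.41 and an adjusted p of 0.501. The lower level in males thus did not pass the correction for any member.

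Other genes of replication were taken from lists of origin licensing, helicase activation, polymerases, fork proteins, nucleotide supply and the E2F family, 82 genes in all, of which 81 had a probe without a flag. In MF vs CF, 27 of these were higher and 54 lower, with 5 and 16 past 1.5-fold and a median of -0.26. Of all genes well above background on the 4 arrays, 44.4% were higher in MF vs CF and 48.3% in MM vs CM. The sign of the MF vs CF median of the list turned only without scaling, to 0.14, where the median of all such genes was 0.32. After removal of the GC and the position trend the list gave -0.058 and -0.048, beside 0.11 and 0.10 for all such genes. Under quantile normalization it gave -0.30, and with normexp -0.33, beside -0.12 and -0.11. With the main scaling all such genes gave -0.08. The median of the list was thus below that of all such genes in each of these settings. In MM vs CM, 46 were higher and 35 lower, with 8 past 1.5-fold each way and a median of 0.07, which was -0.034 under quantile normalization. These shares past 1.5-fold did not exceed those of all genes compared. In the brightness range of the members 17.8% were over 1.5-fold lower in MF vs CF, slightly under the share of the list. In CM vs CF 36 were higher and 45 lower (median -0.14), and in MM vs MF 49 were higher and 32 lower (median 0.26). Beside these, 51.3% and 54.1% of all genes well above background on the 4 arrays were higher. In the brightness range of the members 44.1% were higher in CM vs CF (median -0.08) and 53.1% in MM vs MF (median 0.06). In that range 45.4% were higher in MF vs CF (median -0.08) and 56.5% in MM vs CM (median 0.08). In CM vs CF and MM vs CM the directions of the list were thus near those of genes in that range.

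The partners of the members mostly differed little between M and C. Cdc45, which joins the ring and GINS in the active helicase, gave a log2 difference of -0.73 in MF vs CF and 0.23 in MM vs CM. The other GINS subunits differed less than Gins1 in MF vs CF. Gins2 gave -0.34 in MF vs CF, Gins3 0.09 and Gins4 -0.12. In MM vs CM they gave 0.10, 0.23 and 0.82 in the same order. Rrm1, the large subunit of the reductase, gave 0.07 in MF vs CF and 0.06 in MM vs CM. Mcm10, a helicase partner, gave 0.06 and 0.17, and Cdt1, the other loader, 0.07 and 0.03.

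Among the other replication genes, 6 differed by over 2-fold between M and C in at least 1 of the sexes, with 4 of these acting at origins or forks. The share of all genes past 2-fold was not counted, so whether 6 is more than the background is unknown. Gmnn, the inhibitor of Cdt1, gave -1.10 in MF vs CF and -0.90 in MM vs CM, lower in M in both sexes. Its probe was dim, with log2 levels from -3.02 on MF to -1.50 on CM, below the brightness range of the members. Over probes of all brightness the SD between spots was 0.53 in MF vs CF and 0.64 in MM vs CM. Topbp1, a helicase activation factor, gave -0.62 and -1.24, also lower in M in both. Wdhd1, which couples polymerase and helicase, gave -1.38 in MF vs CF and 0.14 in MM vs CM. Rpa2, a subunit of the single-strand binding protein, gave 1.21 and -0.51. The other 2 were transcription factors: E2f3 gave -0.56 and 1.25, and E2f5 gave -0.63 and 1.39. The second probe of E2f3 gave -0.01 in MM vs CM.

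The proliferation marker Mki67 was at 5.58 on MF, 5.95 on CF, 4.99 on MM and 5.28 on CM, and gave -0.59 in MM vs MF and -0.66 in CM vs CF. Top2a, the mitotic topoisomerase, gave -0.11 in MM vs MF and 0.13 in CM vs CF. Of 19 mitosis genes, 14 were lower and 5 higher on CM than on CF, and 11 lower and 8 higher on MM than on MF, with medians of -0.24 and -0.23. Of all genes well above background on the 4 arrays, 51.3% and 54.1% were higher in these pairs (medians 0.02 and 0.08). In the brightness range of the members 44.1% and 53.1% were higher (medians -0.08 and 0.06).

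The labelled tissue was borne out by hepatocyte markers, of which 10 of 10 were well above background on each array. Between MM and CM, 8 of these 10 were lower in MM (median log2 difference -0.64). Markers of other cell types differed between the arrays as well. The summed signal of 10 granulocyte and macrophage markers, in units of the 75th percentile, was 1908 on MF, 767 on CF, 809 on MM and 1131 on CM, and 10 of 10 were higher in MF than in CF. The sum of 10 erythroid markers was 2052 on MF, 2820 on CF, 1496 on MM and 2395 on CM, and 7 of 10 were lower in M than in C in each sex. The sum of 8 intestinal markers was 81.3 on MF, 8.44 on CF, 32.2 on MM and 7.38 on CM, and 6 of 8 were well above background on MF. The sum on MM rests on Fabp2 (log2 level 4.98), while Vil1 (-1.24) and Lgals4 (-0.83) had a negative log2 difference in MM vs CM. The sum of 8 heart muscle markers was 176 on CF, beside 0.853 on MF, 1.01 on MM and 2.64 on CM. The sum of 8 exocrine pancreas markers was at most 4.98. Thus the intestinal and the granulocyte and macrophage sums were highest on MF alone, and the heart sum was highest on CF alone. MF and CF are also the arrays between which Gins1 and Rrm2 differed by over 2-fold. In the comparison of the sexes, 7 of 10 erythroid markers were lower on CM than on CF (median log2 difference -0.49), as were 8 of 8 heart markers. On MM, 10 of 10 granulocyte and macrophage markers (median -1.12), 7 of 10 hepatocyte markers (-0.60), 7 of 10 erythroid markers (-0.20) and 6 of 6 measured intestinal markers were lower than on MF. The part of all these markers in the levels of the replication genes was not tested.

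**Figure D4:**
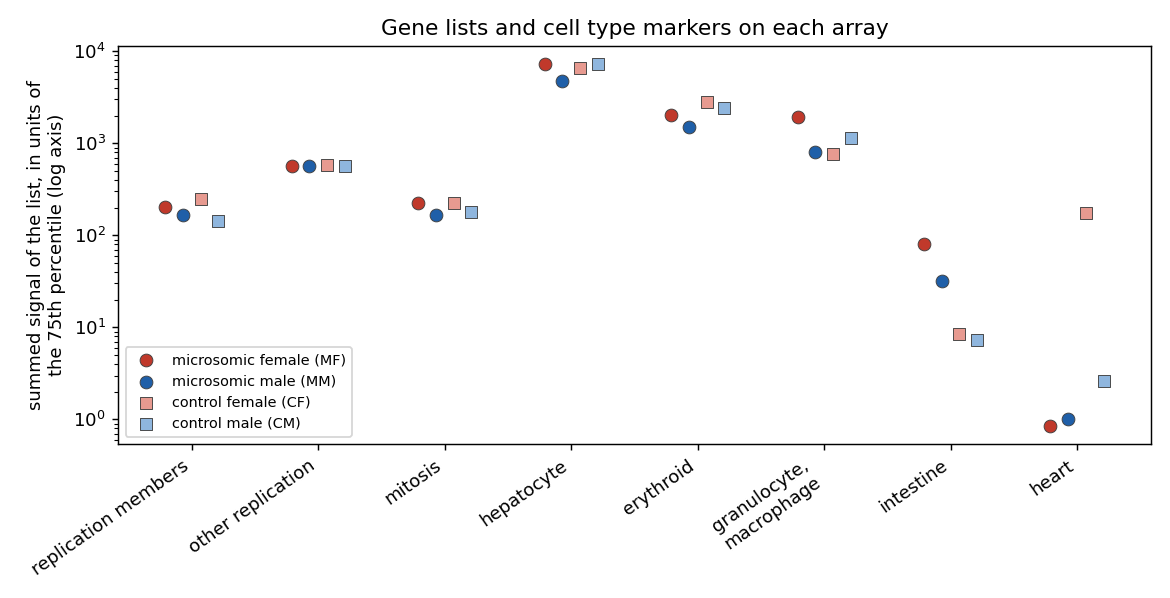
Summed signal of gene lists on each array, in units of the 75th percentile and on a log axis, with the symbols of the plot of levels. The other replication genes lie between 566 and 582 on the 4 arrays, while the heart markers are at 176 on CF and at most 2.64 elsewhere, and the intestinal markers are highest on MF (81.3).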

How the data were processed

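Cy3-labelled liver RNA of 4 groups was measured on Agilent mouse expression arrays, 1 per group. Scans were read by the authors in Agilent Feature Extraction. Its processed signal, as deposited, is a linear intensity after subtraction of a background surface and detrending, not normalized between arrays. The deposited value table equals it in all 62976 spots. The number of arrays limits the precision.

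The log2 of the signal minus the 75th percentile of the array was computed. The 1754 spots that the software had marked as outliers on at least 1 of the arrays were omitted, and a gene was taken by its brightest probe. A gene was compared where at least 1 of the arrays was well above background. Below background, the difference is a bound against the lowest such signal. A difference over 1.5-fold was counted. The terms M or C and sex were tested with limma (3.58.1, R 4.3.3) over genes well above background on all 4 arrays, with Benjamini-Hochberg adjustment, and the fit was tested on simulated data. Named genes are the members, 7 partners, other replication genes past 2-fold, Mki67 and Top2a. Ddx3y, Fabp2, Vil1 and Lgals4 were named after their values were seen. The members and all lists were chosen with earlier results of these data known. Alternatives were centring, quantile normalization, normexp (offset 50), no scaling, flagged spots, GC and position trends, filters, probe choice and threshold. Probe positions are on mm9 and promoters on GRCm38.p6.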

Additional observations from a re-analysis of the deposited data

Results flagged for a closer look

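Among the 7 members whose M to C differences had opposite signs in the sexes, 2 had differences that lay more than 2-fold apart. The share of all genes with such a gap was not counted, so whether 2 is more than the background is unknown. For Gins1 the log2 difference was -1.32 in MF vs CF and 0.07 in MM vs CM, a gap of -1.40. For Rrm2 it was -1.01 and 0.42, a gap of -1.44. Each rests on 4 arrays without replicates and the difference was not tested. The positive values in males were under 1.5-fold.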

How the results depend on the processing

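No paired analysis was possible because the labels give 1 array per group and no replicate numbers, and for the same reason no replicate could be left out. The same alternatives were run on the sex comparisons after seeing the data. No member past 1.5-fold changed sign in that comparison under any setting run; this was not run gene by gene for the other replication genes, whose median in MM vs CM turned from 0.07 to -0.034 under quantile normalization and -0.011 with normexp. The cause of each shift was not tested. For the members in MF vs CF (0 higher and 2 lower past 1.5-fold), median centring gave 2 higher, no scaling 3 with a median of -0.027, the GC trend 3, the position trend 2, and each quantile setting 4 lower. In MM vs CM (0 higher, 1 lower), 0 lower remained under median centring, normexp with quantile, no scaling, both trends, the mean over probes and the 2-fold threshold. The number higher was 3 under median centring, normexp with quantile and the GC trend, 4 under the position trend and 6 without scaling, where the median was 0.63. In CM vs CF the median was -1.05 under median centring, and 3 were lower past 2-fold. In MM vs MF the median was -0.28 under quantile normalization and -0.067 with normexp, with 2 higher under each and 3 lower under normexp, and 3 were lower past 2-fold. For the other replication genes in MF vs CF (5 higher, 16 lower), the counts were 9 higher under median centring, 16 and 3 without scaling (median 0.14), 11 and 7 with the GC trend, 9 and 8 with the position trend, and 1 and 2 past 2-fold. In MM vs CM (8 each), they were 17 and 3 under median centring, 23 and 19 with normexp and quantile, 44 and 1 without scaling (median 0.63), 18 and 2 with the GC trend, 17 and 1 with the position trend, and 2 and 1 past 2-fold. limma called 9 genes without scaling, all higher in M, and 163 (72 higher) at the unadjusted threshold of the methods with 1.5-fold. Centring on the median moved the median of all genes in CM vs CF from 0.02 to -0.40. In MM vs CM the median of all such genes was 0.53 without scaling and 0.21 under median centring. With the GC and the position trend removed it was 0.25 and 0.24, beside -0.03 with the main scaling. The share of all genes past 1.5-fold was not counted under each alternative scaling. The counts under those settings therefore have no background beside them and are not a result about the replication genes.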
